A study of Mus musculus with 3 samples.

Results

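The 9 genes described here encode enzymes of the homocysteine and methionine cycle: Mtr, Mtrr, Mat2a, Ahcy, Cbs, Cth, Shmt1, Shmt2 and Mthfd2. They were taken by name from the 32285 genes of the deposited count matrices, and all 9 were found. They were read in aortic immune cells of ApoE-/- mice on the C57BL/6J background by droplet single-cell RNA sequencing. ApoE-/- mice lack a ligand that clears cholesterol-rich lipoproteins, and they develop atherosclerosis. There were 3 groups with 1 library each. The control group carried the shared genotype with no treatment named. Over 4 weeks, mice of the HHcy group took in homocysteine at 1.8 g/L with their water, and mice of the WD group ate a western diet. The labels give no age, sex or number of mice per library. Aortas were digested with their adventitia, and live nucleated CD45+ cells were sorted. The comparisons asked which immune classes hold transcripts of each arm of the cycle, and how levels differed between the libraries.

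The methionine cycle turns methionine into S-adenosylmethionine, the methyl donor of most methyltransferases, and leaves homocysteine as its end product. Homocysteine is either methylated back to methionine (remethylation), with a methyl group from folate and cobalamin as cofactor, or condensed with serine on the way to cysteine (transsulfuration). Serine also supplies folate with one-carbon units through the serine hydroxymethyltransferases. Transsulfuration is best known from liver and kidney, and dividing lymphocytes are known for their use of serine-derived one-carbon units in nucleotide synthesis.

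The promoters of Mthfd2, Shmt2, Mtr and Ahcy are shown first. In the levels described after them, each of the first 3 had a cell class that stood apart from the other classes. Ahcy counted as higher in cycling B cells and, from few UMIs, in cycling macrophages/monocytes. Each sequence is the 250 bases before the gene's start from RefSeq (GRCm38.p6), written 5′ to 3′ along the minus strand, the strand of all 9 genes. The windows are chr6:83317605-83317854 for Mthfd2, chr10:127522445-127522694 for Shmt2, chr13:12258114-12258363 for Mtr and chr2:155074498-155074747 for Ahcy, and for Mthfd2 the RefSeq start lies inside the span of the GRCm38 gene. Capitals mark the CCAAT box, known to be bound by NF-Y, read as CCAAT or, on the other strand, as ATTGG.
Mthfd2: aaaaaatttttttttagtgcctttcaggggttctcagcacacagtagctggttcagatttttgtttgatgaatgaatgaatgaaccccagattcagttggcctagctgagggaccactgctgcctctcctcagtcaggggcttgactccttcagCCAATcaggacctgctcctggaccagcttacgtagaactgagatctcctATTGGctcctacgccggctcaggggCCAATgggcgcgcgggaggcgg
Shmt2: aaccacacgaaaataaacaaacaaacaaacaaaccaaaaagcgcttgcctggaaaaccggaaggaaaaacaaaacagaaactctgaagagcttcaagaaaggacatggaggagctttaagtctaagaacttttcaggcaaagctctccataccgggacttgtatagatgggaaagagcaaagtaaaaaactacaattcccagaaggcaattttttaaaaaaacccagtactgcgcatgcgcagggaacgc
Mtr: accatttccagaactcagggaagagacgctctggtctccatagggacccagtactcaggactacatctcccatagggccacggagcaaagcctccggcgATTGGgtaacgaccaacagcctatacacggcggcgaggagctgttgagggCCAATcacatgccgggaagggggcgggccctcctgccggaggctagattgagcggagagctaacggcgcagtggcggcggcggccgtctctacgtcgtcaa
Ahcy: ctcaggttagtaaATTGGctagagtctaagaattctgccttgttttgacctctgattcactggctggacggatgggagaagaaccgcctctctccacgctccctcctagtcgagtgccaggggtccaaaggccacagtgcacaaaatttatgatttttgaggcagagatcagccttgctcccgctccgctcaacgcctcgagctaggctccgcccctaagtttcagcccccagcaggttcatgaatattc
The Mthfd2 window holds 3 CCAAT boxes, whose first bases lie 96, 47 and 22 bases before the start. Mtr holds 2, at 151 and 101 bases, and Ahcy 1, at 237 bases. The Shmt2 window does not hold these letters. Of the 8 members with an entry, 7 hold a CCAAT box, against 33.8% of 32851 promoter windows. CACGTG, the E-box, is in 1 member (Cbs) and 6.02% of windows. TGATGNAA (TTNCATCA on the other strand), an element of Atf4 and C/EBP proteins, is in 0 members and 3.45% of windows. TTTNNCGC (GCGNNAAA), an E2F element, is in 0 members and 4.28% of windows, and the TATA box, TATAAA or on the other strand TTTATA, is in 1 member (Mat2a, 32 bases before the start) and 12.4% of windows. The 4 windows shown hold none of the last 4 motifs, and each match is a description of letters only. Cth is named only.

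The control library held 7512 cell barcodes with 66789257 UMIs (unique molecular identifiers, each standing for 1 captured transcript), the library labelled HHcy 9753 with 105180370, and the WD library 8557 with 93164076. Barcodes with markers of more than 1 lineage were removed (9.14%, 20.01% and 19.9% of those that passed the quality limits), and 5486, 6523 and 5378 cells remained, whose median depths were 7692.5, 6835 and 8213.5 UMIs. Ptprc, which encodes CD45, had a UMI in 93.5%, 93.5% and 90.8% of them. Each pair of libraries shared 20 to 24 barcodes, 63 in all. Apoe, disrupted in the strain, had 1090 UMIs in the control and 1801 in the WD library, but 39368 in the HHcy library. That library goes against its genotype label, so it is called the library labelled HHcy, and every direction drawn from it carries this limit. With 1 library per group there is no replicate check and no test between groups. All intervals are 95% intervals for counting error only, and for a count of 0 the level that 3 UMIs would give is stated as its upper limit.

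Levels are given as CPM, UMIs put on 1 common total for every class and library. The 5 major classes were B cells (2260, 3740 and 1270 cells in the control library, the library labelled HHcy and the WD library), T cells (160, 230 and 161), macrophages/monocytes (2092, 1326 and 2786), conventional dendritic cells (494, 298 and 436) and neutrophils (186, 413 and 264). Runs of 3 values follow this order. The assay counts transcript ends, so a level is compared between classes for 1 gene and never between genes. A gene is said to have a class that stands apart when its lowest CPM there lies above its highest CPM in the other 4 classes. Of the 7 members with at least 100 UMIs over the major classes, 3 had such a class, while 46.8% of the 12751 genes with this depth did. The share of the members is near that of all genes. The 3 were Mtr in macrophages/monocytes, Shmt2 in T cells and Mthfd2 in conventional dendritic cells, classes that stood apart for 11.1%, 16.5% and 4.88% of all genes.

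In the remethylation arm, Mtr (ENSMUSG00000021311, chr13:12182712-12258113 of GRCm38) encodes methionine synthase, which moves the folate methyl group to homocysteine. Its CPM in macrophages/monocytes was 20.6 (18.6 to 22.8), 22.1 (19.6 to 24.9) and 20.9 (19.3 to 22.6). T cells had 15.8 (9.06 to 25.7), 16.5 (11.4 to 23.2) and 11.02 (5.87 to 18.8), and B cells 13.7, 13.8 and 11.8. All 3 macrophage/monocyte values lay above all values of the other classes, with a median 1.32 times that of T cells, while T cells, B cells and conventional dendritic cells (12.1, 13.3 and 13.2 CPM) overlapped. Neutrophils were lowest, at 11.01, 2.78 and 3.41 CPM from 11, 7 and 4 UMIs. Mtr kept macrophages/monocytes as its class apart in each of 12 other settings of scaling, filters, clustering, naming and depth, also without the library labelled HHcy.

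Mtrr (ENSMUSG00000034617, chr13:68560780-68582149) encodes methionine synthase reductase, which restores the cobalamin of methionine synthase. Its order of classes differed from that of Mtr. T cells had 12.9 (6.86 to 22.02), 10.0 (6.11 to 15.5) and 5.93 (2.39 to 12.2) CPM, and B cells 8.32 (7.12 to 9.66), 8.04 (7.08 to 9.10) and 8.80 (7.10 to 10.8). These classes overlapped with each other, and the B cell values lay above all values of conventional dendritic cells (3.13, 4.38 and 4.78) and macrophages/monocytes (4.40, 3.67 and 4.25), which overlapped in turn. Neutrophils held 1 Mtrr UMI in the control and 0 in the other libraries, where 0 UMIs allow up to 1.19 CPM (HHcy-labelled) and 2.56 CPM (WD).

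In the methylation arm, Mat2a (ENSMUSG00000053907, chr6:72432799-72439558) encodes the catalytic subunit of the methionine adenosyltransferase of most tissues, which makes S-adenosylmethionine. Exons of Particl lie opposite it, and Particl is not among the genes counted. Mat2a was at 201 (174 to 231), 144 (128 to 162) and 180 (156 to 206) CPM in T cells. It was at 195 (188 to 201), 170 (163 to 178) and 175 (170 to 180) in macrophages/monocytes. B cells had 177 (171 to 183), 133 (129 to 137) and 161 (154 to 169), and conventional dendritic cells 134, 122 and 128. Each of these classes overlapped with its neighbour in the order. Neutrophils lay below all of them, at 112 (92.3 to 135), 35.3 (28.3 to 43.4) and 69.8 (55.5 to 86.7). Among the small classes, mast cells or basophils (35, 24 and 12 cells) had 292, 365 and 178 CPM, with wide intervals (the last one 104 to 285).

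Ahcy (ENSMUSG00000027597, chr2:155059310-155074497) encodes S-adenosylhomocysteine hydrolase, which releases homocysteine and clears the inhibitor left by methyl transfer. Gm45609 lies antisense within it with no shared exon. Ahcy was at 4.95 (1.61 to 11.6), 13.5 (8.90 to 19.7) and 7.63 (3.49 to 14.5) CPM in T cells. B cells had 6.52, 5.91 and 6.81 CPM. The 2 classes overlapped, and B cells lay above conventional dendritic cells (4.26, 2.50 and 4.15) and macrophages/monocytes (2.58, 2.24 and 2.66) in all libraries. Neutrophils held 2 Ahcy UMIs in all, both in the library labelled HHcy.

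The transsulfuration arm was near the limit of detection. Cbs (ENSMUSG00000024039, chr17:31608894-31637238) encodes cystathionine beta-synthase, which joins homocysteine with serine, and Cth (ENSMUSG00000028179, chr3:157894248-157925077) encodes cystathionine gamma-lyase, which releases cysteine. Over all cells used there were 8, 4 and 5 Cbs UMIs and 7, 11 and 2 Cth UMIs. B cells held 6, 2 and 1 of the Cbs UMIs and 4, 8 and 1 of the Cth UMIs, and macrophages/monocytes held 2, 2 and 1 and 1, 2 and 1. Conventional dendritic cells held 1 Cth UMI. T cells and neutrophils held 0 UMIs of either gene, which allows up to 2.97, 1.501 and 2.54 CPM in T cells and 3.002, 1.19 and 2.56 CPM in neutrophils. No cell held more than 1 UMI of these genes, except 1 control B cell with 2 of Cbs. At this depth no difference between classes or libraries could be read, and no fold is given. Before any filter on barcodes the sums were 8, 9 and 14 for Cbs and 7, 20 and 4 for Cth.

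Shmt1, Shmt2 and Mthfd2 supply the one-carbon units. Shmt1 (ENSMUSG00000020534, chr11:60788104-60811718) encodes the cytosolic serine hydroxymethyltransferase. It overlaps exons of Smcr8 on the other strand, and 184 bases near its transcript end match Smcr8 in a search that read both strands. Whether transcripts of 1 gene were counted for the other was not tested. B cells had 6.08, 4.04 and 4.16 CPM and T cells 0.990, 7.01 and 10.2, from 1, 14 and 12 UMIs. The classes overlapped, and B cells lay above conventional dendritic cells (1.63, 3.34 and 2.51) and macrophages/monocytes (1.43, 1.44 and 1.66). Neutrophils held 1 UMI in all.

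Shmt2 (ENSMUSG00000025403, chr10:127517123-127522444) encodes the mitochondrial serine hydroxymethyltransferase. Its exons overlap those of Ndufa4l2 on the other strand. T cells had 28.7 (19.2 to 41.3), 31.0 (23.8 to 39.8) and 30.5 (21.4 to 42.2) CPM, B cells 24.9 (22.8 to 27.2), 22.03 (20.4 to 23.7) and 20.6 (18.0 to 23.6), conventional dendritic cells 13.3, 14.4 and 12.1, and macrophages/monocytes 8.74, 7.11 and 9.73. No neighbours in this order overlapped, and neutrophils held 3, 0 and 2 UMIs. The step from B cells to conventional dendritic cells exceeded the counting intervals, but the step from T to B cells did not, and it depended on the scaling. With TMM scaling, which matches the bulk of genes between sums, T cells had 21.3, 24.4 and 22.5 and B cells 25.3, 23.0 and 20.6. With totals that leave out mitochondrial and ribosomal protein genes the values were 39.7, 44.3 and 41.1 against 40.2, 35.6 and 32.6. T cells did not stand apart under either. With cycling cells left out they were also no longer apart, at 19.6, 20.6 and 13.2 against 20.1, 16.4 and 18.2 CPM.

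Mthfd2 (ENSMUSG00000005667, chr6:83305691-83325908) encodes the mitochondrial methylenetetrahydrofolate dehydrogenase and cyclohydrolase, an enzyme known from embryonic and proliferating cells. Conventional dendritic cells had 60.5 (55.2 to 66.1), 59.6 (52.9 to 67.0) and 65.1 (59.6 to 71.0) CPM, and T cells 44.6 (32.5 to 59.6), 46.5 (37.6 to 57.0) and 49.2 (37.3 to 63.5). Macrophages/monocytes followed with 32.9, 27.8 and 35.8, then B cells with 17.5, 15.8 and 15.7. None of these neighbours overlapped, while neutrophils (20.02, 4.36 and 8.52) overlapped B cells. Conventional dendritic cells stood apart for Mthfd2 in the same 12 settings. Plasma cells, few in number (19, 78 and 32), had 44.0, 40.2 and 44.0 CPM of Shmt2 and 14.7, 21.6 and 42.2 CPM of Mthfd2.

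**Figure D1:**
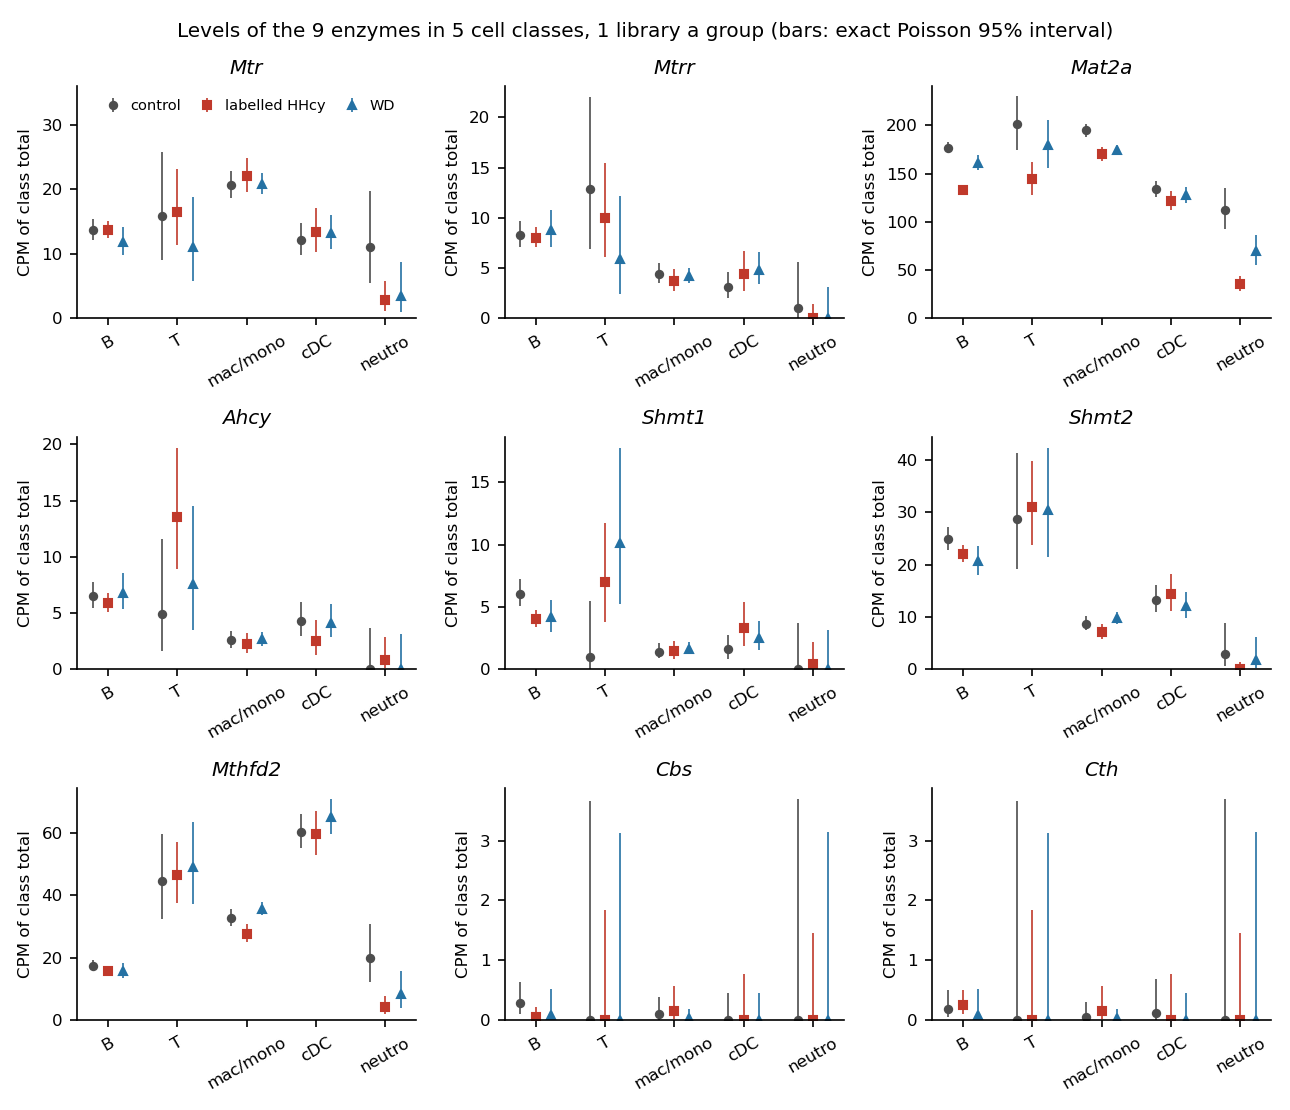
CPM of each of the 9 enzymes (vertical axes, linear and starting at 0) in B cells, T cells, macrophages/monocytes, conventional dendritic cells (cDC) and neutrophils, 1 point per library with exact Poisson 95% intervals. Mtr is highest in macrophages/monocytes (20.6 to 22.1 CPM), Mthfd2 in conventional dendritic cells (59.6 to 65.1 CPM), and Cbs and Cth lie near 0 in every class.

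Within macrophages/monocytes, resident-like macrophages were the highest named subset for Mtr and Mat2a and the lowest for Mthfd2. Resident-like macrophages, named by markers such as Lyve1 and Cd163, had 40.8, 43.6 and 36.1 CPM of Mtr and 336, 273 and 272 CPM of Mat2a (481, 379 and 732 cells). Foamy-like macrophages (350, 166 and 855 cells) had 19.9, 17.3 and 18.6 CPM of Mtr and 140, 110 and 141 CPM of Mat2a. Resident-like macrophages thus lay above foamy-like macrophages in every library for both genes. Mthfd2 went the other way, with 10.9, 8.25 and 12.8 CPM in resident-like macrophages against 29.4, 18.9 and 36.5 in foamy-like macrophages. Mat2a was at 177, 120 and 129 CPM in classical monocytes and 202, 173 and 184 in non-classical monocytes, which lay above foamy-like macrophages in every library. Monocytes had more Mthfd2 than resident-like macrophages, at 38.7, 32.7 and 44.0 CPM in classical monocytes and 56.9, 52.6 and 64.7 in non-classical monocytes. The non-classical monocytes lay above all other named macrophage, monocyte and B cell subsets for this gene, and overlapped conventional dendritic cells (59.6 to 65.1 CPM). Their Mtr was at 11.7, 12.5 and 12.2 CPM, below classical monocytes at 14.2, 13.6 and 14.0, with overlapping counting intervals. These Mtr values of monocytes overlapped those of T cells (11.02 to 16.5 CPM), so the place of the class for Mtr did not hold for monocytes.

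Among B cells, Mat2a was at 196, 161 and 188 CPM in B1-like cells, 163, 130 and 159 in naive follicular B cells and 121, 110.1 and 114 in immature B cells, the same order in each library. Immature B cells, the smallest named subset (277, 191 and 220 cells), had 22.4, 29.2 and 36.6 CPM of Shmt2, above the other 2 named B cell subsets in each library, and 12.9, 9.41 and 18.3 CPM of Mtrr. The B1-like share and the naive follicular share differed between libraries (897, 422 and 366 against 700, 2636 and 486 cells).

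**Figure D2:**
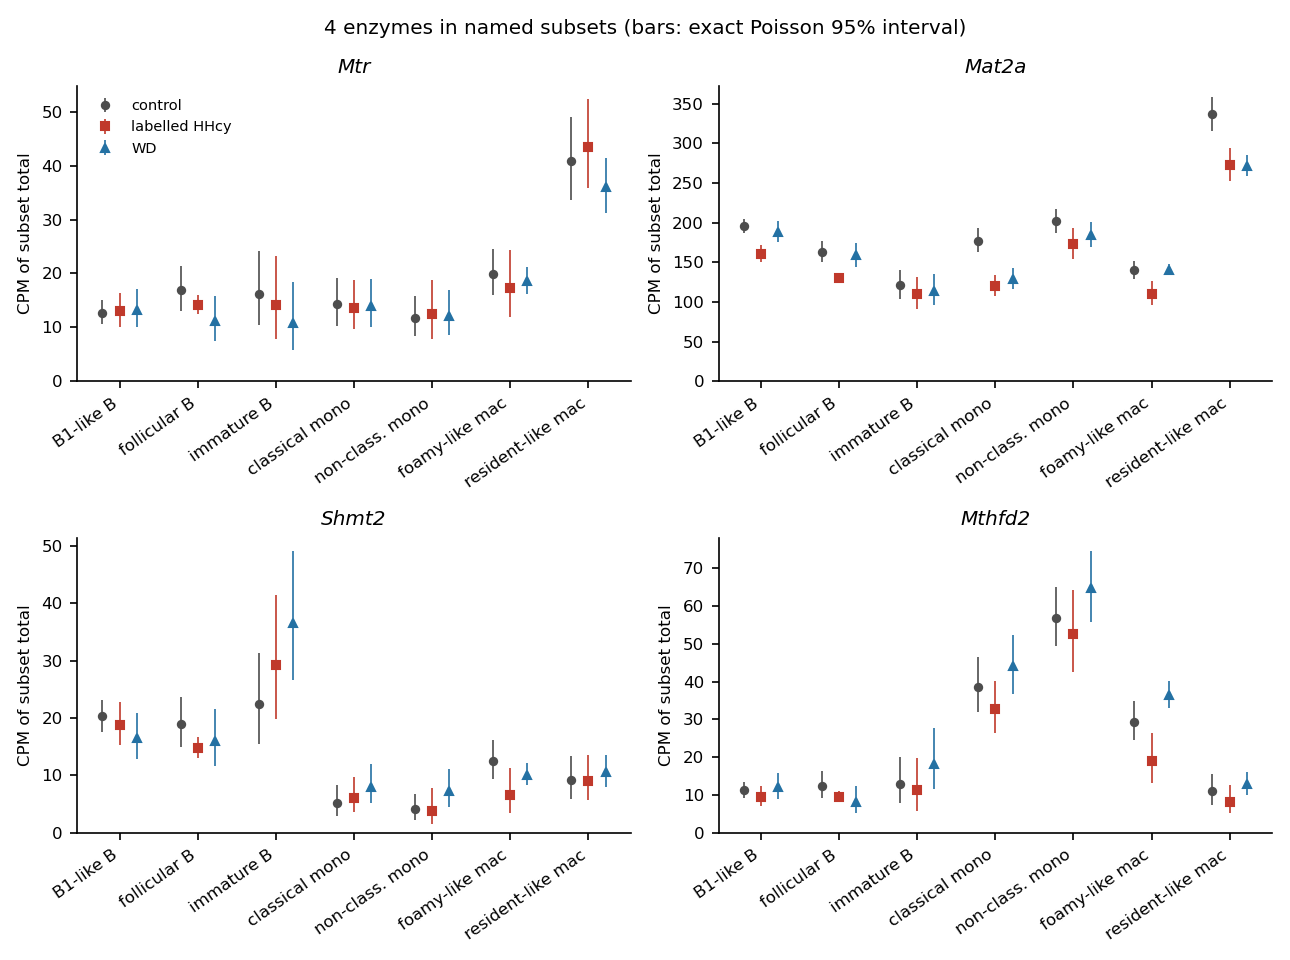
CPM of Mtr, Mat2a, Shmt2 and Mthfd2 (vertical axes, starting at 0) in 7 named subsets, 1 point per library with exact Poisson 95% intervals. Resident-like macrophages have the highest Mtr (36.1 to 43.6 CPM) and Mat2a (272 to 336 CPM), and non-classical monocytes the highest Mthfd2 (52.6 to 64.7 CPM).

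Clusters are described by genes that lead them against the other cells of their class. Among conventional dendritic cells, the cluster led by Fscn1, with Ccl22 and Ccr7 among its leading genes, which are known from migratory dendritic cells, had 123, 129 and 111 CPM of Mthfd2 (91, 38 and 123 cells). The cluster led by Cd209a had 35.2, 47.6 and 46.8 CPM, and the one led by Xcr1 had 58.6, 51.6 and 60.1. The Fscn1-led cluster lay above both in every library, while its Shmt2 was at 4.97, 4.23 and 5.31 CPM, below the class as a whole. It held 18.4%, 12.8% and 28.2% of the class. The Cd209a-led cluster overlapped T cells (44.6 to 49.2 CPM), so not every cluster shared the place of the class for Mthfd2. Among neutrophils, a cluster with Ube2c, Mki67 and Mpo among its leading genes (27, 10 and 12 cells) had 275, 253 and 259 CPM of Mat2a, against 17.2 to 88.4 CPM in the other neutrophil clusters.

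Cycling cells were set against the other cells of the same class and library, where a cycling cell holds at least 5 UMIs over 18 cell-cycle genes. A gene counted when it was at least 1.5-fold higher in every library with 20 or more cycling cells. Over the classes together, 9 of 23 tested pairs of a member and a class counted, beside 11.9% of the pairs of all genes. In B cells, 4 of 7 members counted (Ahcy, Shmt1, Shmt2 and Mthfd2; 15.7% of all genes tested in that class), in macrophages/monocytes 2 of 6 (Ahcy and Shmt2; 7.14%), in T cells 1 of 3 (Shmt2; 11.6%), in conventional dendritic cells 0 of 5 (6.08%), and in neutrophils, with 29 cycling cells in the control library only, 2 of 2 (Mat2a and Mthfd2; 28%).

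Shmt1 in B cells was at 31.4, 20.8 and 19.3 CPM in cycling cells (83, 95 and 28 cells) against 3.34, 2.31 and 3.05 in the others, a fold of 9.39, 8.99 and 6.34. Mthfd2 was at 66.8, 73.3 and 69.0 against 12.1, 9.88 and 11.8 CPM, a fold of 5.50, 7.42 and 5.86. All cycling values of these genes lay above all values of the other B cells. Shmt2 was at 69.8, 76.7 and 53.8 against 20.1, 16.4 and 18.2 CPM, and Ahcy at 28.9, 15.7 and 17.9 against 4.10, 4.91 and 6.00 CPM, a fold of 7.05, 3.20 and 2.99. Mat2a went the other way, at 132, 97.6 and 77.3 CPM against 182, 136 and 167. Markers of plasma cells moved with this contrast. All 8 were detected in both kinds of B cells, with summed levels of 2032 to 5820 CPM in cycling and 554 to 592 CPM in other B cells, and Jchain, which joins antibody chains in secreting cells, was at 971 to 2589 CPM against 9.81 to 21.0. The 10 B cell markers were detected in both, at 3641 to 4060 CPM in cycling and 6927 to 7788 CPM in other B cells. Of the cycling B cells, 70, 80 and 23 lay in 1 cluster with Pclaf, Jchain, Ighg2b and Mki67 among its leading genes within B cells, and their median depth was 20559 to 25083 UMIs against 6403 to 7375. The part of these differences in the result was not tested. With doublets kept, or with up to 20% mitochondrial UMIs allowed, plasma cells held 70 to 95 cycling cells in the control and HHcy-labelled libraries, and B cells held 13 to 16, too few for the count. With every cell thinned to 2000 UMIs, Shmt2 and Mthfd2 counted in B cells, and Ahcy and Shmt1 did not. A gene needed 20 UMIs in every library to be tested, and thinning leaves fewer. Before thinning, B cells of the WD library held 72 Ahcy and 44 Shmt1 UMIs. That these genes did not count when thinned therefore says nothing of their fold.

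In T cells, Shmt2 was 2.18, 2.38 and 4.10 times as high in cycling cells (31, 43 and 32 cells). Of the Shmt1 UMIs in T cells, 13 of 14 in the library labelled HHcy and 12 of 12 in the WD library lay in cycling cells, while the 1 UMI of the control lay outside them. In macrophages/monocytes (77, 48 and 177 cycling cells), Ahcy was 1.57, 4.00 and 3.13 times and Shmt2 2.35, 1.69 and 1.73 times as high. Their cycling cells held only 5, 7 and 24 Ahcy UMIs and 24, 11 and 56 Shmt2 UMIs. The log2 intervals of Ahcy in the control (-1.04 to 1.99) and of Shmt2 in the library labelled HHcy (-0.30 to 1.68) include 0. Mthfd2 was 1.37, 2.70 and 2.02 times as high and missed the limit in the control. With TMM scaling Ahcy did not count in macrophages/monocytes. The serine and folate list held the most other pathway genes that counted: 7 of 11 tested in B cells (among them Mthfd1, Mthfd1l, Tyms, Phgdh, Psat1 and Psph), 4 of 6 in T cells, 5 of 12 in macrophages/monocytes and 4 of 10 in conventional dendritic cells. In these 4 classes 15.7%, 11.6%, 7.14% and 6.08% of all genes tested counted. Tyms makes thymidylate, and Phgdh, Psat1 and Psph make serine. In B cells the remethylation list had 1 of 5, the methylation list 0 of 4 and the transsulfuration list 1 of 8. The salvage and polyamine list had 3 of 9 there (Apip, Srm and Sms) and the Atf4 list 2 of 8 (Aars and Gars). Beside the 15.7% of all genes, 1 of 5, 1 of 8 and 2 of 8 are near the background. In neutrophils the Atf4 list had 2 of 6 (Atf4 and Chac1), near the 28% of all genes. Odc1, which starts polyamine synthesis, was the 1 salvage gene tested there, and it counted.

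**Figure D3:**
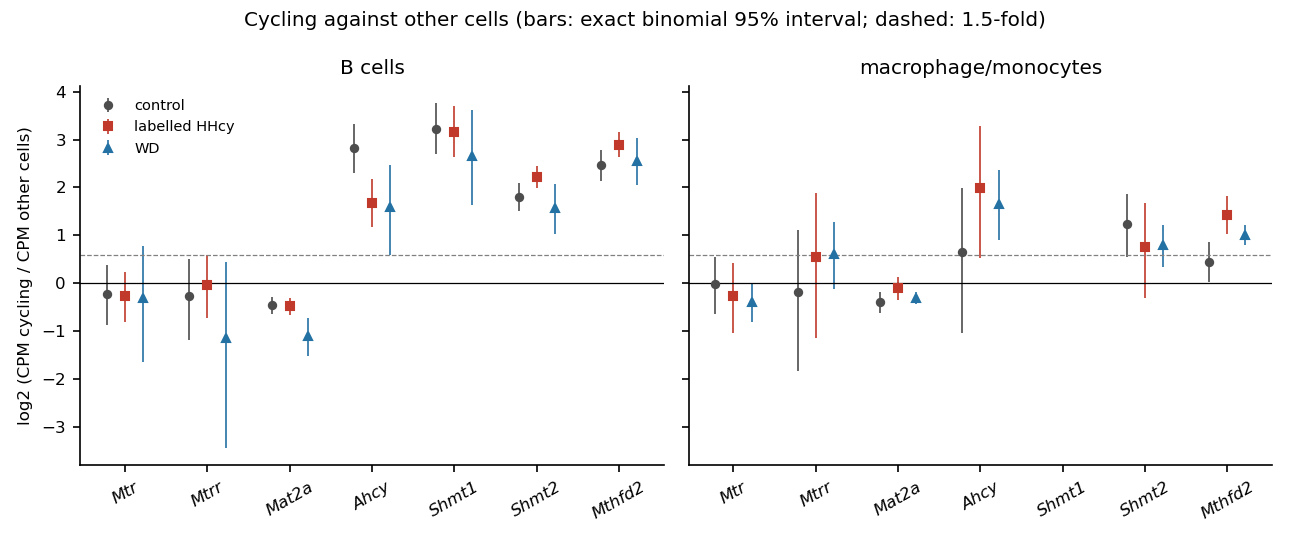
Log2 ratio of CPM in cycling against other cells (vertical axis) for 7 enzymes in B cells and macrophages/monocytes, 1 point per library with exact binomial 95% intervals; the dashed line is 1.5-fold and enzymes without enough UMIs are left blank. In B cells Ahcy, Shmt1, Shmt2 and Mthfd2 lie above the line in all 3 libraries and Mat2a lies below 0.

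Levels were then compared between libraries within each class, with a call at 1.5-fold or more and at least 20 UMIs over the 2 libraries. The 3 comparisons share libraries, the first pair the control, so each stands for itself. In the library labelled HHcy against control, 2 of 29 tested pairs of a member and a class were called higher and 4 lower, beside 6.62% and 10.8% of pairs over all genes. In the WD library against control, 2 of 28 were higher and 3 lower, beside 6.77% and 8.14%. In the library labelled HHcy against the WD library, 2 of 30 were higher and 3 lower, beside 6.82% and 9.55%. These shares are near the background. For the library labelled HHcy, the members' median log2 ratio to control was -0.14 in B cells and -0.21 in macrophages/monocytes, where all genes had -0.04 and -0.03, and -0.15 and 0.04 in the WD library, where all genes had 0.01 and -0.01. Cbs and Cth did not reach the minimum of UMIs in any class.

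Mat2a differed most broadly. In the library labelled HHcy its log2 ratio to control was -0.41 (-0.48 to -0.35) in B cells, -0.48 (-0.74 to -0.21) in T cells and -0.19 (-0.27 to -0.12) in macrophages/monocytes, all short of the 1.5-fold call. The median of all genes in T cells was -0.08. Mat2a was lower in each of the 7 named B cell and macrophage/monocyte subsets (-0.56 to -0.13), with 6 intervals that leave out 0, and Mthfd2 was lower in each too (-0.63 to -0.11), with 1 such interval. Of the members, 4 had enough UMIs in all 7 subsets, and 7.24% of 7297 genes were lower in all 7. In the WD library Mat2a was at -0.13 in B cells and -0.16 in macrophages/monocytes against control. It was lower in 6 of the 7 subsets there, at -0.46 in classical monocytes and -0.31 in resident-like macrophages, and at 0.0054 in foamy-like macrophages.

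In neutrophils both tested members were called lower in all 3 comparisons, beside 29.3% of all genes for the library labelled HHcy against control, 18.4% for WD against control and 17.4% for HHcy-labelled against WD. In the library labelled HHcy, Mat2a was at -1.67 (-2.09 to -1.25) and Mthfd2 at -2.20 (-3.41 to -1.07) against control, and in the WD library at -0.68 (-1.11 to -0.26) and -1.23 (-2.49 to -0.07). The make-up of the class moved with this. Cycling cells were 15.6%, 2.91% and 5.68% of neutrophils, and the cluster led by Ube2c 14.5%, 2.42% and 4.55%. With cycling cells left out, Mat2a was at -1.26 and -0.28 and Mthfd2 at -0.48 and -0.47. With both libraries given the same mix of clusters, Mat2a was at -0.86 and -0.16 and Mthfd2 at -1.10 and -0.23. Both calls of the WD library ended with the same mix, and that of Mat2a also with cycling cells left out. Outside cycling cells the control held 4 Mthfd2 UMIs, too few, with those of either other library, to reach the minimum of 20. The Mthfd2 values without cycling cells therefore say nothing of its fold. Against the WD library, the library labelled HHcy was at -0.98 (-1.43 to -0.53) for Mat2a and -0.97 (-2.34 to 0.43) for Mthfd2. This Mthfd2 call rests on 11 against 10 UMIs, its interval includes 0, and it was at -0.0073 with cycling cells left out. The Mthfd2 calls against control rest on 11 (HHcy-labelled) and 10 (WD) against 20 UMIs. The call of Mat2a in the WD library against control also ended with TMM scaling (-0.57), with doublets kept (-0.51) and with cells thinned to 2000 UMIs (-0.40).

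Like those of Mthfd2 in neutrophils, most other calls rest on few UMIs. Ahcy in T cells was higher in the library labelled HHcy than in the control (1.45, 0.05 to 3.18, from 27 against 5 UMIs). Of these, 18 of the 27 and 4 of the 5 UMIs lay in cycling T cells. Ahcy in conventional dendritic cells was lower (-0.77, -1.85 to 0.22), and Shmt1 there was higher (1.04, -0.11 to 2.21). Both of these intervals include 0. Shmt1 in B cells was lower (-0.59, -0.96 to -0.22), at -0.36 with shared barcodes left out. In the control, 2 cycling B cells with 73662 and 113968 UMIs, whose barcodes also occur in another library, held 18 of the 125 Shmt1 UMIs. In the WD library against control, Mtrr was lower in T cells (-1.12, -2.68 to 0.31, from 7 against 13 UMIs) and higher in conventional dendritic cells (0.61, -0.16 to 1.40), as was Shmt1 there (0.63, -0.45 to 1.76). Against the WD library, the library labelled HHcy was higher in T cells for Mtrr (0.75) and Ahcy (0.83) and lower for Ahcy in conventional dendritic cells (-0.73). Most of these calls ended under other settings. With cycling cells left out, Ahcy in conventional dendritic cells was at -0.25 against control and -0.17 against WD. Mtrr in T cells was then at 0.0023 in HHcy-labelled against WD, from 13 against 7 UMIs. It was at -0.52 in the WD library against control, from 7 against 9 UMIs. Ahcy in T cells was at 0.28 in HHcy-labelled against WD, from 9 against 4 UMIs. The -0.52 and the 0.28 are under the minimum of 20 UMIs and do not show whether their calls ended. With doublets kept, HHcy-labelled against WD was at 0.17 for Mtrr and 0.066 for Ahcy in T cells and -0.24 for Ahcy in conventional dendritic cells, and Mtrr in conventional dendritic cells of the WD library was at 0.46. With cells named one by one from their markers, Shmt1 in conventional dendritic cells was at 0.35 (HHcy-labelled) and -0.030 (WD) against control. Ahcy in T cells against control stayed a call wherever it had enough UMIs (1.12 to 1.66), which it did not with cycling cells left out or cells thinned. Among the T cells were 15, 12 and 9 cells of a cluster with Ace and Treml4, markers of monocytes, among its leading genes. Their part in the T cell values was not tested.

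**Figure D4:**
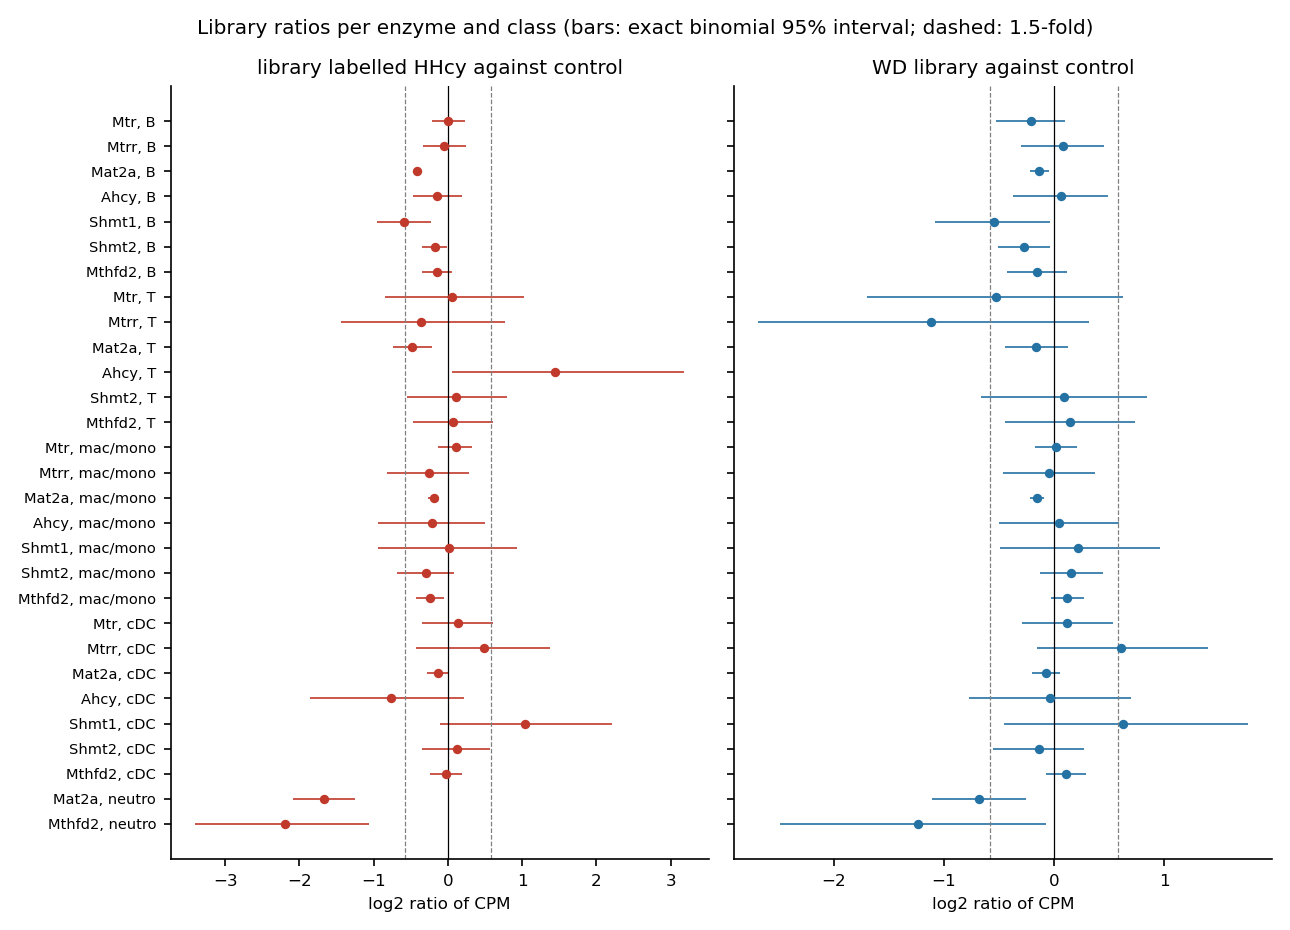
Log2 ratio of CPM (horizontal axes) of the library labelled HHcy and of the WD library to the control for each enzyme and class with at least 20 UMIs, with exact binomial 95% intervals and dashed lines at 1.5-fold. Mat2a lies below 0 in all 5 classes of the library labelled HHcy, from -1.67 in neutrophils to -0.14 in conventional dendritic cells, and most other intervals cross 0.

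The other genes of the pathways were taken from lists of 64 genes. Their counts of genes with a class that stood apart are read against the 46.8% of all genes, which 3 of 6, 7 of 13 and 5 of 11 are near. Of the remethylation list, 3 of 6 genes with at least 100 UMIs had a class that stood apart, among them Lmbrd1 in B cells and Tcn2 in macrophages/monocytes. Tcn2, the cobalamin carrier of blood, was at 132 to 167 CPM there. Of the methylation list 1 of 7 did (Gamt in macrophages/monocytes). The salvage and polyamine list had 4 of 9, near the 46.8%. The Atf4 list had 8 of 11, above it, among them Ddit3, Asns, Chac1 and Sesn2 in neutrophils. Of the serine and folate list 7 of 13 did, among them Mthfd1l, Tyms, Psat1, Psph and Slc25a32 in T cells and Slc46a1 in macrophages/monocytes. Cycling cells were 19.4%, 18.7% and 19.9% of T cells, and Mthfd1l, Tyms and Psat1 counted as higher in cycling T cells. The part of cycling cells, and of the scaling, in these T cell places was not tested. Of the transsulfuration and cysteine list 5 of 11 had a class that stood apart. Among them Slc7a11, which imports cystine from outside the cell, was at 1683 to 2288 CPM in neutrophils, 152 to 218 in macrophages/monocytes and 1.75 to 3.41 in B cells. Phgdh, the first enzyme of serine synthesis, was at 80.5 to 92.2 CPM in B cells and 53.5 to 89.8 in T cells, against 1.76 to 5.35 in macrophages/monocytes.

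In B cells of the library labelled HHcy against control, 0 of 13 serine and folate genes were called, beside 6.09% of all genes higher and 8.97% lower, and Odc1 was at 186 against 327 CPM (-0.81). In macrophages/monocytes, 3 of 14 serine and folate genes were higher, among them Tyms (0.96) and Phgdh (0.70), and 1 was lower (Slc19a1, -0.81), beside 5.14% and 4.46% of all genes. In T cells Tyms was higher (0.68). In the WD library against control, Tyms was at 1.24 and Phgdh at -0.91 in macrophages/monocytes. Cycling cells were 3.68%, 3.62% and 6.35% of this class, and their part in the Tyms values was not tested. Phgdh in this class was at 3.30, 5.35 and 1.76 CPM, low beside its level in B cells given above. B cells were 2260, 3740 and 1270 of the 5486, 6523 and 5378 cells. Whether B cell transcripts entered these Phgdh values was not tested. In conventional dendritic cells of the WD library, Slc7a11 was at 106 against 55.0 CPM in the control (0.95). In T cells of that comparison 3 of 8 salvage and polyamine genes were higher (Apip, Srm and Odc1), beside 8.87% of all genes. In neutrophils of the library labelled HHcy against control, 3 of 3 salvage and polyamine genes were lower (Amd1, Sms and Odc1, the last at -0.95), beside 29.3% of all genes. Of the Atf4 list, which holds Atf4, a transcription factor of the amino acid response, and its targets, 4 of 10 were lower there (Atf4 at -1.31, Asns, Chac1 and Aars), and in the WD library 5 of 9 were lower (Atf4 at -0.80) and 1 higher, beside 18.4% and 8.73%. The fall in the share of cycling neutrophils given above moved with these lists too, and its part was not tested. In neutrophils of the library labelled HHcy against control, Gclm, a subunit of the enzyme that starts glutathione synthesis, was higher (1.95). Gclc, the other subunit, was called lower. These were the 1 higher and 1 lower of 8 tested transsulfuration and cysteine genes, beside 8.59% and 29.3% of all genes.

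The genes whose levels over the 15 class and library values were most like each member were sought among 11065 genes by Pearson's r of log2(CPM + 1). These points share libraries and class depth, so r describes likeness only. Shmt2 was most like Zfp644, Eprs and Rnps1 (0.991 each), Mtrr like Ep400 (0.986), Mbtps1 (0.982) and Dera (0.982), and Mthfd2 like Cycs (0.981), Bcat2 (0.963) and Etfb (0.959). Mat2a was most like Msl3 (0.968), Ric8b (0.967) and Zfp326 (0.965), and among the genes most like Mtr were Stau1 (0.957) and Emc7 (0.951). Ahcy was most like Uqcc3 (0.972), Jmjd7 (0.969) and Elp6 (0.964). Among the genes most like Shmt1 were Tmem267 (0.937) and 2700081O15Rik (0.931). Among the members, the closest pairs were Mtrr with Shmt2 (0.949), Mtr with Mat2a (0.897) and Ahcy with Shmt1 (0.891).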

How the data were processed

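The authors' deposited matrices hold raw UMI counts per gene and cell barcode of 3 droplet libraries (a 3' end protocol of Chromium version 3 chemistry per the labels). Cell Ranger 4.0.0 wrote them per the file headers, while the submitters' processing notes name Cell Ranger 2.2.0 and mm10. The annotation is not given in the sources used here, and gene positions are those of the GRCm38 reference. Total counts per library were 66789257 to 105180370.

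Barcodes with under 200 genes or over 10% mitochondrial UMIs were left out, as were those that reached the marker limit of more than 1 lineage (B 6, T 5, NK 5, myeloid 8, neutrophil 7, stromal 6 detected markers). Such a rule cannot mark doublets of 1 lineage. The remaining cells were clustered without batch correction on 2000 variable genes, with the members and the pathway lists kept out. Settings were 30 principal components, 20 neighbours, Leiden resolution 1.0 in the first and second rounds and seed 1, which gave 44 clusters. A cluster was named from marker lists when at least 3 markers were each detected in 25% of its cells, and it lost its name when 3 of its 30 leading genes were markers of another lineage. The lineage limits and this last rule were set after the data were examined, and the members and lists were chosen with earlier results of these data known. The names were rebuilt here, and a difference from the study may rest on that.

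UMIs were summed per class and library and divided by the class total (CPM). Intervals are exact Poisson for levels and exact conditional binomial for ratios. Named genes were all members, pathway genes with at least 50 UMIs over the 2 libraries, a 1.5-fold difference and an interval that leaves out 0 (up to 4 per class and direction), and the 3 genes most like each member. A few genes that this rule names are not reported here. In cluster names and lists a few genes were named after their values were seen: those that lead a cluster, and the pathway genes given for their class or for a list's count. The 17 alternatives covered scaling, filters, doublets, clustering, naming, depth, cycling cells, shared barcodes, the minimum, the fold and the mix of clusters. Scripts were tested on simulated data. Python 3.11.15, numpy 2.4.6, pandas 2.3.3, scipy 1.17.1, scikit-learn 1.9.0, leidenalg 0.10.2, igraph 0.11.9, matplotlib 3.10.9 and R 4.3.3 with edgeR 4.0.16 (for TMM factors only) were used.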

Additional observations from a re-analysis of the deposited data

Results flagged for a closer look

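In 4 places the same gene and comparison had called values of opposite direction in different classes. None of these differences was tested, since each group has 1 library, and most intervals include 0.

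Ahcy in the library labelled HHcy against control was higher in T cells (1.45, 0.05 to 3.18) and lower in conventional dendritic cells (-0.77, -1.85 to 0.22), a difference of 2.21 on the log2 scale. Against the WD library, its T cells had the higher Ahcy (0.83, -0.31 to 2.10) and its conventional dendritic cells the lower (-0.73, -1.82 to 0.26), a difference of 1.55. Both calls ended with doublets kept (0.066 and -0.24). With cycling cells left out, the call in conventional dendritic cells ended (-0.17). The T cell value (0.28) then had too few UMIs for a call. Both Ahcy comparisons use the library whose Apoe went against its label. Shmt1 in that library against control was higher in conventional dendritic cells (1.04, -0.11 to 2.21) and lower in B cells (-0.59, -0.96 to -0.22), a difference of 1.63. Mtrr in the WD library against control was higher in conventional dendritic cells (0.61, -0.16 to 1.40) and lower in T cells (-1.12, -2.68 to 0.31), a difference of 1.73.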

How the results depend on the processing

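No paired analysis was possible because each group has 1 library. Of the ratios named for single members, 318 values over the alternatives kept their direction and moved by less than their intervals, 15 moved by more and 5 reversed. The reversed ones were Shmt1 in B cells of the WD library against control (0.0072 with up to 20% mitochondrial UMIs, 0.097 with cells thinned to 2000 UMIs), Shmt2 there (0.12 thinned), Shmt1 in conventional dendritic cells of that comparison (-0.030 when cells were named one by one from their markers) and Shmt2 in macrophages/monocytes, HHcy-labelled against WD (0.48 thinned). Thinning leaves fewer UMIs, but the cause of these reversals was not tested.

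Counts of called pairs that moved by over 1.5 times are given as HHcy-labelled against control, WD against control, then HHcy-labelled against WD. Higher calls, in these data 2, 2 and 2, became 1 in the first and 0 in the last with doublets kept, 0 in the first and last with cells thinned, 0 in the first and second with cycling cells left out, and 0 in the second and last at 2-fold. In the second alone they became 1 with totals without mitochondrial and ribosomal protein genes, 4 with no minimum of UMIs, and 0 with up to 20% mitochondrial UMIs, at Leiden resolution 2, with cells named one by one and with the same mix of clusters. Lower calls, 4, 3 and 3, became 1 in the second with doublets kept, 5 in the second with up to 20% mitochondrial UMIs, 1 in the last at Leiden resolution 2, 2 in the first and 0 in the second with cells thinned, 1, 0 and 1 with cycling cells left out, 6 in the second with no minimum, and 2 in the first and 0 in the last at 2-fold. The count of members higher in cycling cells, 9, was 2 with doublets kept, 4 with cells thinned and 11 without the library labelled HHcy. It also rose with cells named one by one, where Mat2a and Shmt2 counted in conventional dendritic cells and Mthfd2 in macrophages/monocytes. The count of members with a class that stands apart, 3, was 2 to 4. Depth limits Cbs, Cth, all T cell and neutrophil values of Mtrr, Ahcy and Shmt1, and the neutrophil values of Mthfd2. It also limits the Ahcy values of cycling macrophages/monocytes.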
